A study of Danio rerio with 12 samples.

Results

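Expression of 6 pigment cell genes, mitfa, dct, tyrp1b, pmela, pnp4a and gch2, was followed in whole zebrafish embryos after DNA damage and after loss of the microRNA miR-34a. The genes were chosen by name, with earlier results of these data known. All 6 had a row among the 15265 genes of the deposited count table. They stand for the 3 pigment cell types of the zebrafish larva. The black melanophores are represented by mitfa, dct, tyrp1b and pmela, the reflective iridophores by pnp4a and the yellow xanthophores by gch2.

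The 12 libraries were made from wild-type and miR-34a-/- embryos, each exposed for 4 h from 24 hours post fertilisation (hpf) to DMSO or to 1 µM camptothecin (CPT), and collected at 28 hpf. CPT is an inhibitor of topoisomerase I that leaves breaks in replicating DNA. Each of the 4 groups (wild-type DMSO, wild-type CPT, mutant DMSO and mutant CPT) held 3 libraries, and each library came from a pool of 30 to 50 embryos. The labels do not say that the pools came from separate clutches or days, so a p-value here rests on pool-to-pool scatter alone, part of which may be technical. The controls received 0.005% DMSO, whereas a 2 mM stock in undiluted DMSO brought to 1 µM carries 0.05% DMSO. If the stock was made in that way, the effect of CPT cannot be told apart from that of its solvent. The row of the deleted microRNA gene, mir34, held 0, 1 and 0 reads in the wild-type controls, 9, 9 and 32 after CPT and 0 in each mutant library, and the count columns name the mutation as a deletion.

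All pigment cells of the body arise from the neural crest, a migratory cell population at the border of the neural tube. The transcription factor encoded by mitfa commits crest cells to the melanophore fate and activates the genes of melanin synthesis. Melanin is made in an organelle, the melanosome, by the enzymes tyrosinase, dopachrome tautomerase (dct) and tyrosinase-related protein 1 (tyrp1b) on fibrils of the premelanosome protein (pmela). Iridophores stack crystals of guanine, to which the purine nucleoside phosphorylase pnp4a contributes. Xanthophores make yellow pteridines, starting from GTP through the GTP cyclohydrolase gch2. The retinal pigment epithelium of the eye makes melanin with the same enzymes, so that dct, tyrp1b and pmela transcripts of a whole embryo can come from both tissues. Melanophore, iridophore and xanthophore gene are used here as labels. Which cells the reads of any member came from, mitfa, pnp4a and gch2 included, was not tested. In pooled whole embryos fewer cells of a type and less RNA per cell cannot be told apart.

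Library totals ran from 13.5 to 27.9 M counts, and the members were read at 22 counts or more in every library. Values are CPM, counts scaled to a common library total, after TMM scaling, which sets libraries to a common level through the bulk of their genes. The composition of the 3 wild-type CPT libraries set them apart, with TMM factors of 0.835 to 0.962 against 1.01 to 1.09 in the other libraries, and their 10 leading genes held 10.7% to 12.3% of counts against 8.79% to 9.58%. With library totals in place of TMM the median gene moved by -0.23 (log2) under CPT in wild-type embryos and by -0.063 in mutants. Changes below are given on the TMM scale. The embryo-wide markers elavl3 of neurons, actc1b of muscle, krt4 of epidermis and hbae3 of red blood cells were all present in wild-type DMSO embryos.

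On the TMM scale CPT changed the members in different directions. With library totals the rise of pmela kept its sign but was not called in either genotype. The iridophore gene pnp4a fell most among the 6, to 0.300 of its control level in wild-type embryos, mitfa fell to 0.487 and the xanthophore gene gch2 to 0.713. The melanosome gene pmela rose to 1.38 times its control level, while dct and tyrp1b did not pass the test. In mutants pnp4a, mitfa and gch2 fell and pmela rose again, and dct and tyrp1b were called lower, at -0.29 each on the log2 scale, with adjusted p-values just under the threshold. In wild-type embryos 1 of 6 members was called higher and 3 lower, where 29.1% of the 11866 genes tested were called higher and 31.8% lower. In mutants 1 was higher and 5 lower, against 28.5% and 31.7% of all genes. A gene was called at an adjusted p under 0.05 in the edgeR quasi-likelihood test, which 60.8% of all genes passed in wild-type embryos and 60.2% in mutants. At an unadjusted p under 0.05 the members numbered 4 and 6, against 64% and 64.1% of all genes. The lower and upper quartiles of the log2 change over all genes tested were -0.65 and 0.45 in wild-type embryos. In mutants they were -0.64 and 0.47. The changes of gch2, dct and tyrp1b in both genotypes, and that of pmela in mutants, lay between these quartiles. In wild-type embryos the rise of pmela (0.46) lay just past the upper quartile. Those of mitfa and pnp4a lay below the lower quartile in both genotypes.

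**Figure D1:**
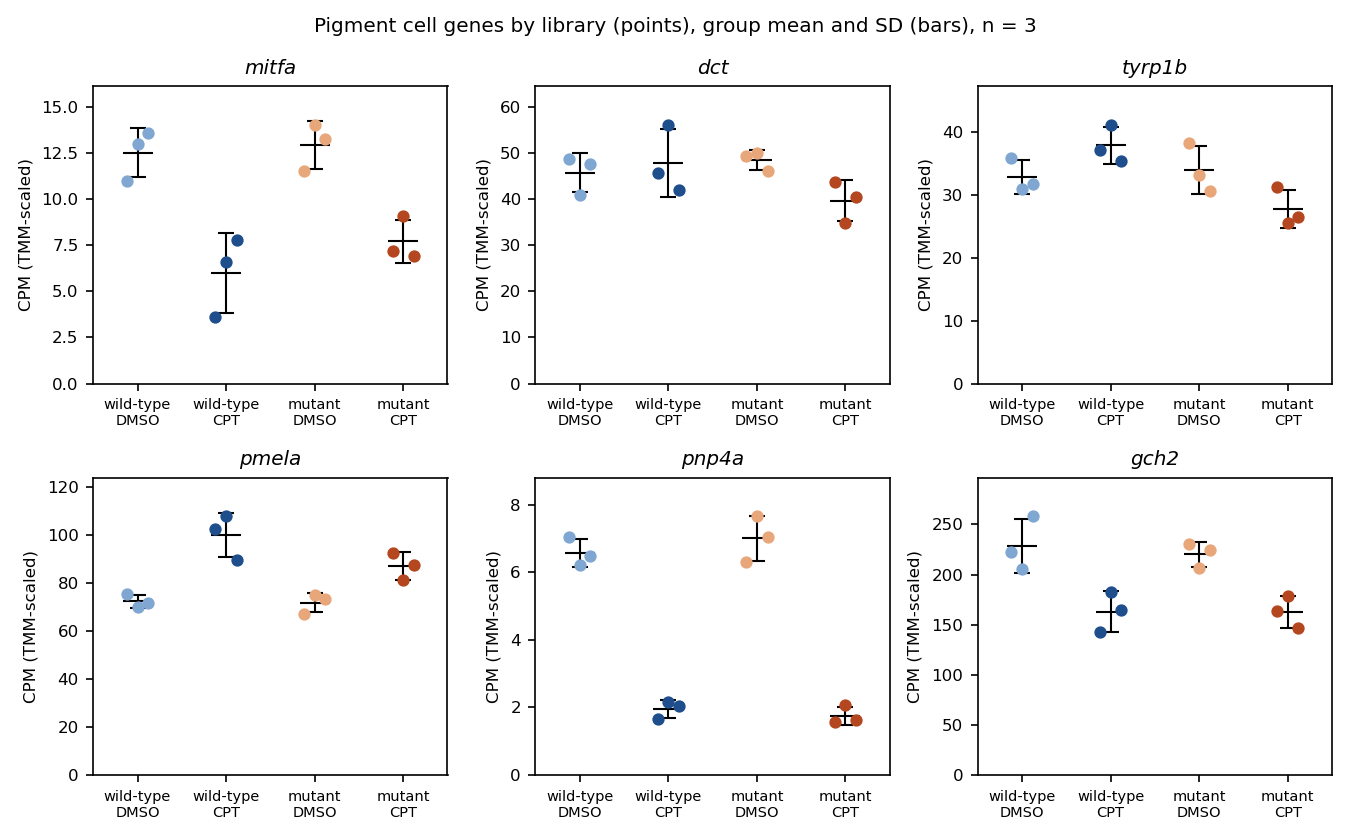
TMM-scaled CPM (vertical axes, from 0) of the 6 pigment cell genes in each of 12 libraries, by genotype and treatment; points are libraries, horizontal bars group means and error bars SD (n = 3). The CPT libraries lie below the DMSO libraries for mitfa, pnp4a and gch2 in both genotypes and above them for pmela.

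The melanophore regulator mitfa stood at 11.0, 13.02 and 13.6 CPM in wild-type controls and at 3.60, 6.61 and 7.81 CPM after CPT. All CPT libraries were below all controls, and wild-type CPT library 1 was the lowest of the 12. Group means were 12.5 ± 1.3 and 6.01 ± 2.17 CPM (SD, n = 3). The change was -1.04 ± 0.20 (log2 ± SE, 95% interval -1.46 to -0.61, edgeR adjusted p = 0.000189). In mutants mitfa was at 11.5, 14.1 and 13.3 CPM with DMSO and at 7.18, 9.07 and 6.90 CPM with CPT, again without overlap. The change there was -0.75 ± 0.21 (95% interval -1.18 to -0.32, adjusted p = 0.00367). Without wild-type CPT library 1 the wild-type change was -0.76, which was its smallest value when libraries were left out in turn, and it was still called.

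The 3 melanosome genes did not fall with mitfa in wild-type embryos. The enzyme gene dct was at 48.7, 41.0 and 47.7 CPM in wild-type controls and at 45.7, 56.2 and 42.0 CPM after CPT, so the groups overlapped. Its change was 0.066 ± 0.12 (95% interval -0.18 to 0.31, adjusted p = 0.65), and the interval did not reach the fall of mitfa. In mutants dct was at 49.3, 50.1 and 46.0 CPM with DMSO and at 43.7, 34.9 and 40.5 CPM with CPT, all CPT libraries being lower, with a change of -0.29 ± 0.12 (adjusted p = 0.0461).

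The changes of the related enzyme gene tyrp1b had the same signs as those of dct in both genotypes. Wild-type DMSO libraries had 35.9, 30.9 and 31.6 CPM and wild-type CPT libraries 37.1, 41.1 and 35.3 CPM, with 1 control inside the CPT range, and the change was 0.20 ± 0.12 (adjusted p = 0.138). Mutant libraries had 38.1, 33.1 and 30.6 CPM with DMSO and 31.1, 25.5 and 26.4 CPM with CPT, which overlapped, and the change was -0.29 ± 0.12 (adjusted p = 0.0443). With library totals the wild-type values of dct and tyrp1b turned to -0.17 and -0.028, both not called. The mutant calls of dct and tyrp1b were lost with DESeq2 (adjusted p = 0.085 and 0.0777), with DESeq2-type size factors and without the filter on low counts, and that of tyrp1b also with limma-voom and with only the groups compared. The dct call was also lost in 9 of 12 fits that left out a library (all but those without wild-type DMSO 2, mutant DMSO 3 or mutant CPT 1) and the tyrp1b call in 8 (all but those without wild-type DMSO 1 or 2, mutant DMSO 3 or mutant CPT 1). In wild-type embryos tyrp1b gained a call for a rise without wild-type CPT library 3 (0.30, edgeR adjusted p = 0.0497).

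The melanosome matrix gene pmela went the other way. It rose from 75.4, 70.1 and 71.5 CPM to 102, 108 and 89.5 CPM in wild-type embryos, and every CPT library was above every control. The means were 72.3 ± 2.8 and 99.8 ± 9.3 CPM, a change of 0.46 ± 0.10 (95% interval 0.26 to 0.67, adjusted p = 0.000329). In mutants it rose from 67.2, 75.1 and 73.1 to 92.5, 81.2 and 87.2 CPM, by 0.28 ± 0.10 (adjusted p = 0.0187), also without overlap. With library totals pmela was at 0.23 in wild-type embryos (adjusted p = 0.0555) and 0.22 in mutants (adjusted p = 0.0652), higher but not called. The mutant call was also lost without mutant DMSO library 1 or mutant CPT library 1 (highest adjusted p = 0.0896).

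The iridophore gene pnp4a gave the sharpest separation of treatments. Its counts were 150, 141 and 153 in wild-type controls and 28, 48 and 55 after CPT, and 103, 175 and 139 against 35, 32 and 22 in the mutants. Scaled means fell from 6.58 ± 0.41 to 1.95 ± 0.27 CPM in wild-type embryos, a change of -1.74 ± 0.19 (95% interval -2.14 to -1.33, adjusted p = 1.85e-07). In mutants they fell from 7.01 ± 0.67 to 1.75 ± 0.27 CPM, a change of -2.01 ± 0.21 (95% interval -2.44 to -1.58, adjusted p = 5.35e-08). The gap between the treatments was wider than the spread of either, and the call held under all alternatives tried for these 2 comparisons.

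The xanthophore gene gch2 fell by less. Wild-type libraries had 223, 205 and 258 CPM with DMSO and 143, 183 and 164 CPM with CPT, and all CPT libraries were lower. The change was -0.49 ± 0.11 (95% interval -0.72 to -0.25, adjusted p = 0.000878). Mutant libraries went from 230, 206 and 224 CPM to 164, 179 and 146 CPM, a change of -0.43 ± 0.11 (adjusted p = 0.00239). Its fall kept its call under all alternatives tried for the 2 treatment comparisons, as did that of mitfa.

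**Figure D2:**
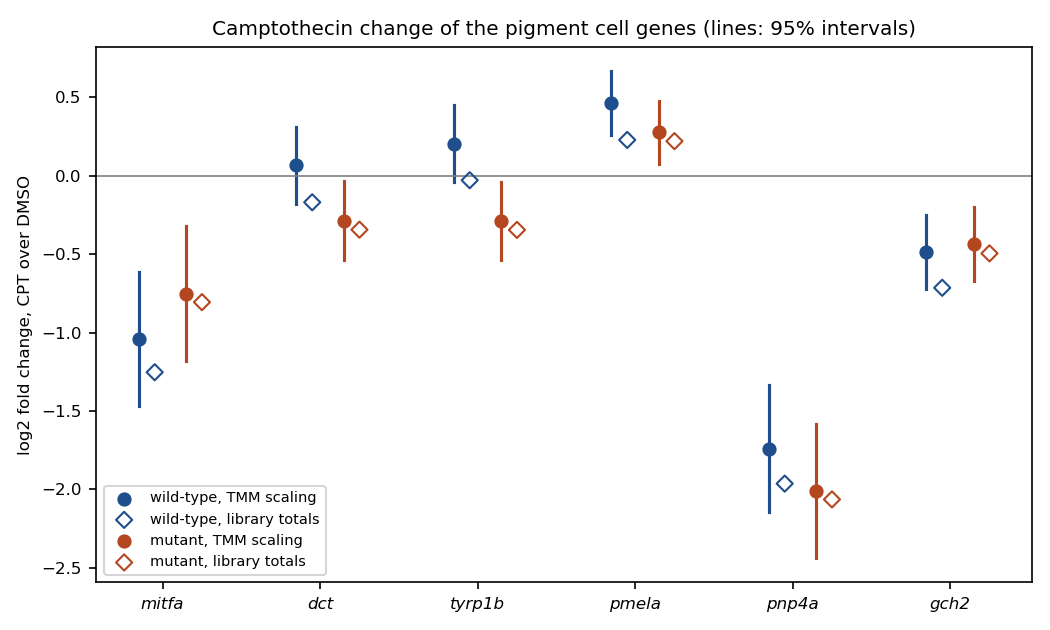
Log2 fold change of each pigment cell gene with CPT against DMSO (vertical axis) in wild-type and mutant embryos. Filled points with lines are edgeR values with 95% intervals on the TMM scale, and open diamonds are values with library totals; pnp4a lies lowest at -1.74 and -2.01, and dct and tyrp1b change sign with the scaling in wild-type embryos.

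Ratios of 2 members within a library do not depend on how libraries are scaled. For each of the 15 pairs the CPT minus DMSO difference in the log2 ratio of counts was averaged over both genotypes and tested with a two-sided exact permutation test within genotype, for which the smallest possible p is 0.005. In 14 of 15 pairs the ratio differed between treatments after Benjamini-Hochberg adjustment over the pairs. The exception was the pair dct and tyrp1b, whose log2 ratio averaged 0.48 and 0.33 in wild-type libraries with DMSO and CPT, and 0.52 and 0.52 in mutant libraries. The difference was -0.074 (exact permutation p = 0.245, adjusted p = 0.245), which does not show that the 2 genes act alike. The share of 14 of 15 was not taken over pairs of other genes, and the pairs have members in common. With CPT 60.8% of all genes were called in wild-type embryos and 60.2% in mutants. The count therefore cannot tell the members from other genes.

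The largest shift was between pmela and pnp4a, whose ratio rose by 2.24 on the log2 scale, 2.21 in wild-type embryos and 2.27 in mutants (exact permutation p = 0.005, adjusted p = 0.00833). Between the pair of genes for the other pigment cell types, pnp4a fell against gch2 by 1.41 (adjusted p = 0.00833, exact permutation test). Within the melanophore genes, mitfa fell against dct by 0.82 (exact permutation p = 0.01, adjusted p = 0.0125) and against pmela by 1.31 (p = 0.005, adjusted p = 0.00833, exact permutation test). The fall of mitfa against dct was 1.19 in wild-type embryos and 0.46 in mutants, and the difference between these 2 values was not tested. Against pmela, dct fell by 0.49 and tyrp1b by 0.41 (both p = 0.005 and adjusted p = 0.00833 in the exact permutation test). The ratio of dct to gch2 rose by 0.35 (adjusted p = 0.0268), with 0.55 in wild-type embryos and 0.14 in mutants, whose groups overlapped. That call was lost without mutant CPT library 1 or 3 in the same exact permutation test (highest adjusted p = 0.0643).

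**Figure D3:**
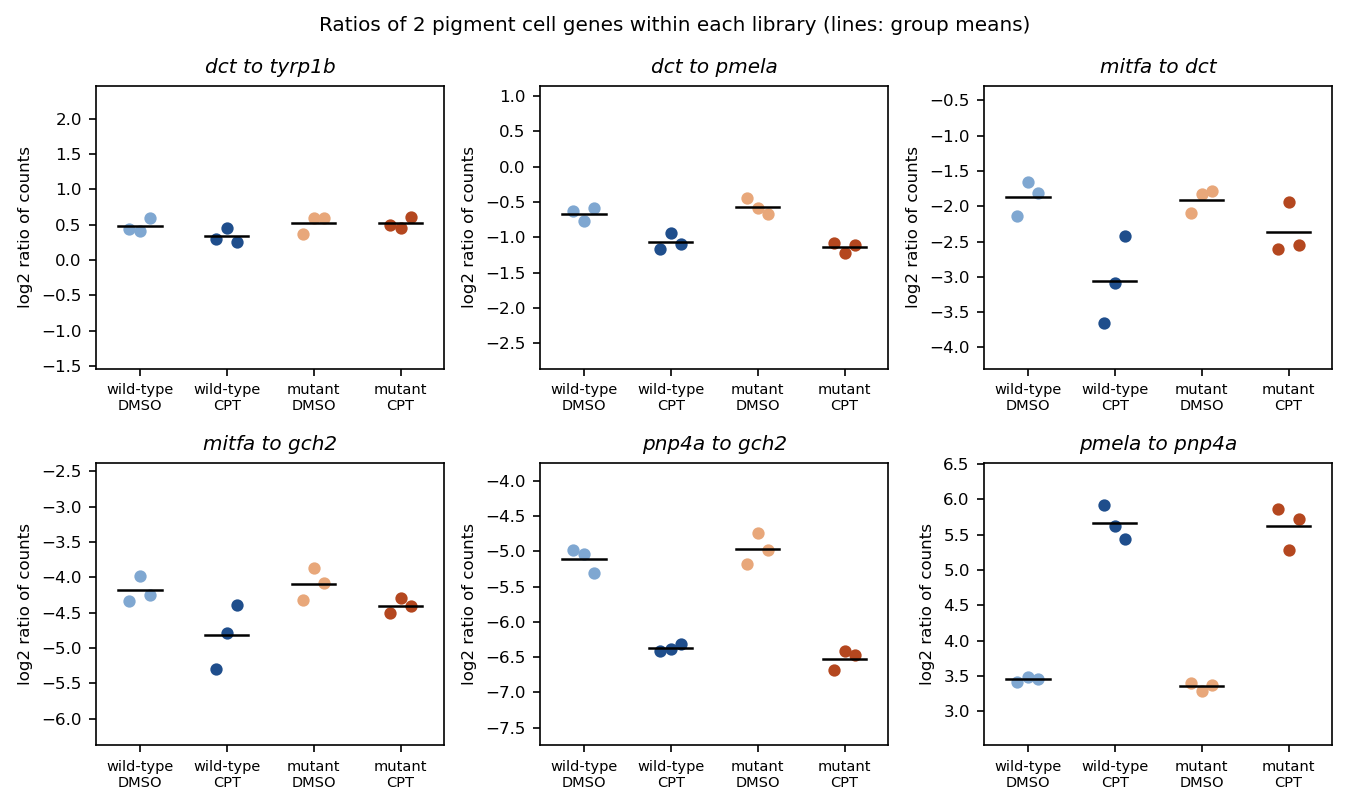
Log2 ratio of the counts of 2 pigment cell genes within each library (vertical axes, each spanning 4 log2 units) for 6 of the 15 pairs; points are libraries and lines group means. The ratio dct to tyrp1b stays between 0.25 and 0.61 in all libraries, whereas pmela to pnp4a moves from 3.45 to 5.66 in wild-type embryos.

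Between genotypes in DMSO the members' levels overlapped in all 6 cases, a share that was not taken over all genes. In that comparison 0 of 6 members were called by edgeR and 0 by DESeq2, where edgeR called 0.598% of all genes. At an unadjusted p under 0.05 in edgeR there were 0 members, against 11.8% of all genes. The changes, mutant against wild-type, ran from -0.054 ± 0.11 for gch2 to 0.094 ± 0.18 for pnp4a. The widest 95% interval was that of mitfa, -0.36 to 0.46, and the narrowest that of pmela, -0.21 to 0.19.

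Under CPT 1 of 6 members differed between genotypes, where 3.29% of all genes were called, 1.13% higher and 2.16% lower in mutants. This was tyrp1b, which was lower in mutants, at 27.7 ± 3.0 against 37.8 ± 2.9 CPM, with all mutant libraries below all wild-type libraries. The change was -0.45 ± 0.12 (95% interval -0.69 to -0.20, edgeR adjusted p = 0.0435). The call lay at the threshold: it was lost with library totals (-0.25, adjusted p = 0.201), when only the 2 groups were fitted (adjusted p = 0.0769) and in 8 of 12 fits that left out a library, namely wild-type DMSO 2 or 3, wild-type CPT 1 or 2, mutant DMSO 2 and any mutant CPT library (highest adjusted p = 0.197). The related enzyme gene dct was at -0.27 ± 0.12 (adjusted p = 0.229) and pmela at -0.20 ± 0.10 (adjusted p = 0.272). The value of mitfa was 0.34 ± 0.21, of pnp4a -0.18 ± 0.23 and of gch2 -0.0012 ± 0.11, none of them called.

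Whether the CPT response itself depended on genotype was tested as an interaction. Of the members, 0 of 6 were called by edgeR, 0 by DESeq2 and 1 at an unadjusted p under 0.05, which 15.1% of all genes passed. In edgeR 0.16% of all genes were called, 0.0253% upward and 0.135% downward. The CPT change of tyrp1b was lower in mutants by -0.49 ± 0.17 (95% interval -0.84 to -0.14, unadjusted p = 0.00806, edgeR adjusted p = 0.164), and that of dct by -0.35 ± 0.17 (95% interval -0.71 to 0.00071, adjusted p = 0.33). For pmela the difference was -0.19 ± 0.14, for pnp4a -0.27 ± 0.29, for mitfa 0.29 ± 0.29 and for gch2 0.053 ± 0.16. Averaged over treatments, the genotypes differed for 0 of 6 members in edgeR and in DESeq2, and 2.14% of genes were called (0.615% higher and 1.53% lower), with 1 member at an unadjusted p under 0.05 (tyrp1b, -0.20 ± 0.08, adjusted p = 0.245), which 15.7% of all genes passed.

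The genes of each pigment pathway were read from lists, some of which share genes. The lists were set by gene name, with earlier results of these data known. Whether reads of a gene came from the cell type of its list was not tested. Counts include the members, and the values without them are given beside each list that holds any. Over all genes tested, 29.1% were called higher and 31.8% lower with CPT in wild-type embryos, and 28.5% and 31.7% in mutants. Of 115 distinct genes tested across the pigment cell, crest and pigment epithelium lists, 24 were higher and 55 lower with CPT in wild-type embryos, with a median log2 fold change of -0.34 against -0.0025 over all genes. In mutants 17 were higher and 59 lower, with a median of -0.43 against -0.0064. Called in either direction were 60.8% of all genes in wild-type embryos and 60.2% in mutants. The same shares were 63.2% and 63.2% for melanin, 81.8% and 81.8% for melanophore specification, and 90.9% and 81.8% for iridophores. For purines they were 66.7% and 38.9%, for xanthophores 93.8% and 100%, and for pteridines 66.7% and 66.7%. The neural crest list had 65.4% and 73.1%, and the retinal pigment epithelium list 52.6% and 57.9%.

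Genes of melanin synthesis and the melanosome were divided. Of 19 tested, dct, tyrp1b and pmela among them, 4 rose and 8 fell in each genotype, with medians of 0.015 in wild-type embryos (-0.22 with library totals, and between -0.044 and 0.087 with a library left out) and -0.15 in mutants. Without the 3 members, 3 of 16 rose and 8 fell in wild-type embryos (median -0.22), and 3 rose and 6 fell in mutants (median -0.12). With library totals 2 of the 19 rose in wild-type embryos, and without mutant DMSO library 1, 5 fell in mutants. Tyrosinase itself (tyr), the rate-limiting enzyme of melanin synthesis, was at 6.31 CPM in wild-type controls and 6.04 CPM after CPT (-0.073, adjusted p = 0.795), and the second premelanosome gene pmelb was at 0.19 (adjusted p = 0.213). The transporter genes of the melanosome slc45a2 (-1.54 ± 0.27) and slc24a5 (-0.86) fell in wild-type embryos, and slc45a2 fell by 1.84 in mutants, where slc24a5 was at -0.60 (adjusted p = 0.0675). The wild-type call of slc24a5 was lost without wild-type CPT library 3 (-0.63, adjusted p = 0.0624). The trafficking genes rab27a (-1.11), rab32a (-0.97) and hps5 (-1.22) fell in wild-type embryos and in mutants, where the call of rab32a was lost without mutant DMSO library 3 or mutant CPT library 1 (highest adjusted p = 0.0937). The cation channel gene trpm1b fell from 57.6 to 9.54 CPM in wild-type embryos (-2.56 ± 0.29, adjusted p = 8.86e-06) and from 68.3 to 13.3 CPM in mutants (-2.36). Among the 4 that rose in wild-type embryos were pmela, the tetraspanin gene tspan36 (1.17) and vps18 (0.74), a subunit of a vesicle tethering complex.

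Genes that specify or maintain melanophores mostly fell: 8 of 11, mitfa among them, fell and 1 rose in each genotype, with medians of -0.65 and -0.75. Without mitfa 7 of 10 fell and 1 rose in each genotype, with medians of -0.62 and -0.88. The receptor tyrosine kinase kita, on which migrating melanophores depend, fell from 9.06 to 4.14 CPM in wild-type embryos (-1.17 ± 0.29, adjusted p = 0.00213) and from 9.17 to 3.98 CPM in mutants (-1.18). The Wnt effector lef1 (-1.68), the neuregulin receptor erbb3b (-1.52) and the survival gene bcl2a (-2.21) fell in wild-type embryos and also in mutants. The crest regulator sox10, an activator of mitfa, fell by 0.59 in wild-type embryos and by 0.58 in mutants. The member of the list that rose was foxd3, a crest factor known to repress mitfa, which went from 50.0 to 81.6 CPM in wild-type embryos (0.71, adjusted p = 1.24e-05) and from 53.4 to 69.7 CPM in mutants (0.38).

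Most genes of the iridophore list fell. Of 11 tested, pnp4a among them, 9 fell and 1 rose in wild-type embryos (median -1.74), and 8 fell and 1 rose in mutants (median -1.02). Without pnp4a 8 of 10 fell in wild-type embryos (median -1.43) and 7 of 10 in mutants (median -0.79). The receptor tyrosine kinase ltk, which iridophores require, had 23, 53 and 34 reads in wild-type controls and 4, 8 and 10 after CPT, a change of -2.28 ± 0.44 (adjusted p = 0.000157), and fell by 3.08 in mutants. The endothelin receptor gene ednrba (-2.06), fhl2a (-2.11), the sugar transporter family gene slc2a11b (-2.30) and the transcription factor tfec (-0.66) fell in wild-type embryos and in mutants. The list was set by gene name, and whether slc2a11b or the other genes on it mark iridophores here was not tested. The mutant call of ednrba was lost without mutant DMSO library 1 or mutant CPT library 1 (highest adjusted p = 0.0671). The gene that rose, gmps, makes guanine nucleotides in all cells, and it was at 0.43 in wild-type embryos and 0.26 in mutants. Both calls were lost with library totals (0.19 and 0.20), and the mutant call in 6 of 12 fits that left out a library (wild-type DMSO 2, mutant DMSO 2 or 3 and any mutant CPT library).

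Purine synthesis, which supplies the guanine of iridophores and the GTP used by gch2, was divided. Of 18 genes 8 rose and 4 fell in wild-type embryos (median 0.11), but 3 rose and 7 fell with library totals (median -0.13), so the balance rests on the scaling. In mutants 3 rose and 4 fell (median -0.0077, 0.017 with DESeq2-type size factors), 1 rose and 7 fell with library totals, and 1 rose without mutant DMSO library 3 or mutant CPT library 3. Without pnp4a 8 of 17 rose and 3 fell in wild-type embryos (median 0.19), and 3 rose and 3 fell in mutants (median 0.0053). The falls were led by pnp4a and by the adenylosuccinate synthase gene adss (-1.67 in wild-type embryos and -1.73 in mutants). In wild-type embryos adssl rose by 0.58 and the salvage enzyme aprt by 0.64, and aprt rose by 0.71 in mutants.

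**Figure D4:**
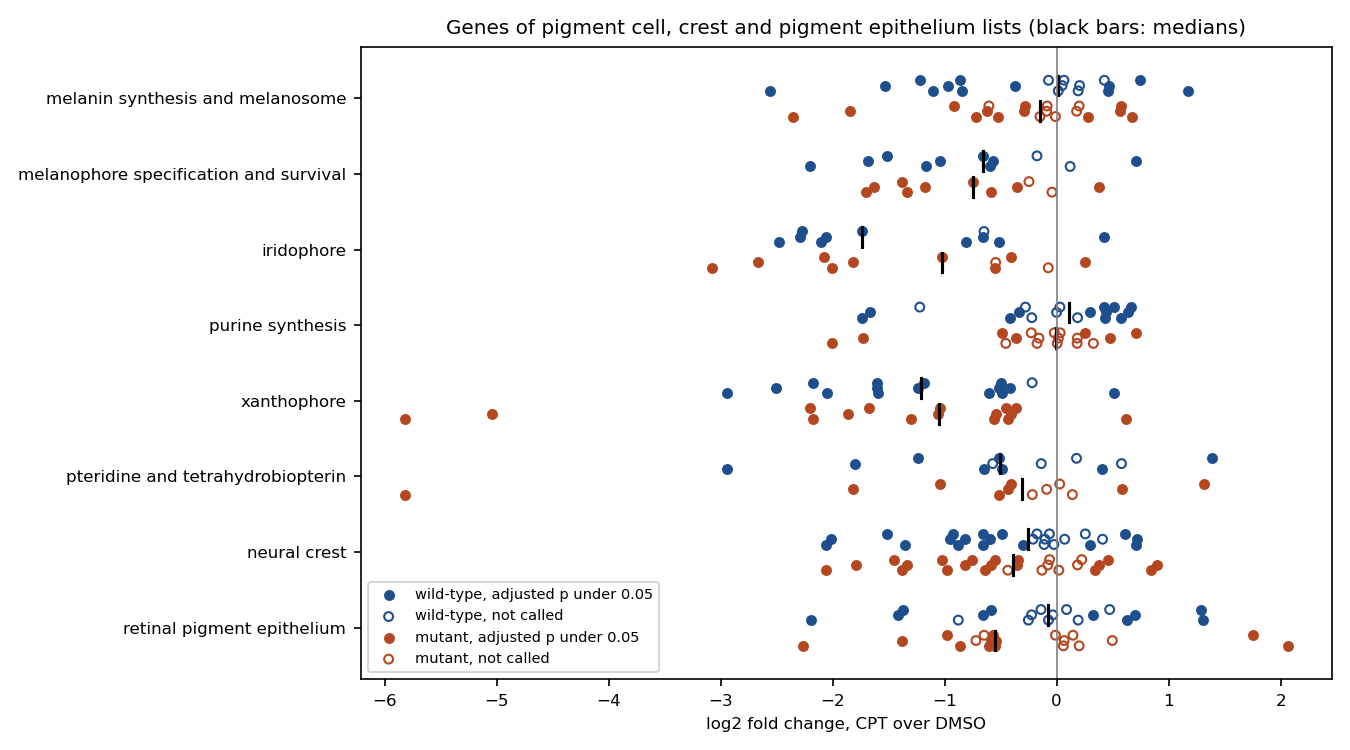
Log2 fold change with CPT against DMSO (horizontal axis) of each tested gene of 8 lists, in wild-type and mutant embryos; filled points passed an edgeR adjusted p of 0.05, open points did not, and black bars are medians. The xanthophore list (medians -1.21 and -1.05) and the iridophore list (-1.74 and -1.02) lie to the left of 0, and the melanin list is split around 0.

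Genes of the xanthophore list fell in larger number: 14 of 16 tested fell and 1 rose in wild-type embryos (median -1.21), and 15 fell and 1 rose in mutants (median -1.05). Whether their reads came from xanthophores or from other cells of the embryo was not tested. Without gch2 13 of 15 fell in wild-type embryos (median -1.24) and 14 in mutants (median -1.06). The single rise was lost in wild-type embryos with library totals or without wild-type DMSO library 2 or 3, and in mutants without mutant DMSO library 1 or mutant CPT library 2. The change of gch2 was among the smaller ones of this list. The transcription factors pax7a and pax7b, which direct crest cells to the xanthophore fate, fell, with changes of -2.51 and -2.17 in wild-type embryos and -5.04 and -2.21 in mutants. The reads of pax7a were few, with 5, 11 and 11 in wild-type CPT and 1, 3 and 1 in mutant CPT libraries, against 39 to 86 in DMSO libraries. The receptor gene csf1ra (-1.60), the oxidase gene aox5 (-1.24), the sugar transporter family gene slc2a15b (-2.05) and sox5 (-1.60) fell in wild-type embryos and also in mutants. The ubiquitin ligase gene mycbp2, known from a zebrafish mutant with reduced yellow pigment, fell, with changes of -2.94 ± 0.30 in wild-type embryos and -5.82 ± 0.42 in mutants, where it had 2, 1 and 1 reads against 98, 81 and 93 with DMSO. Neither pax7a (adjusted p = 0.132) nor mycbp2 (adjusted p = 0.069) passed the interaction test in edgeR.

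In the pteridine pathway around gch2, 6 of 12 genes fell and 2 rose in each genotype, with medians of -0.50 and -0.31. Without gch2 5 of 11 fell and 2 rose in each genotype, with medians of -0.52 and -0.22. In wild-type embryos 1 gene rose with library totals or without wild-type DMSO library 1 or 2 or wild-type CPT library 1. The step after gch2, pts, fell by 0.65 in wild-type embryos and by 0.51 in mutants. The paralogous sepiapterin reductase genes moved in opposite directions: spra rose from 16.96 to 44.2 CPM in wild-type embryos (1.38, adjusted p = 1.72e-09) and by 1.32 in mutants, while sprb fell by 1.80 and 1.82. The paralogue gch1, which makes the cofactor tetrahydrobiopterin in other tissues, was at 4.63 CPM in wild-type controls and 4.24 CPM after CPT (-0.14, adjusted p = 0.672).

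Markers of 2 cell populations related to the pigment cells, the neural crest and the retinal pigment epithelium, were read beside the members, and their part in the members' changes was not tested. In the neural crest list 13 of 26 genes fell and 4 rose in wild-type embryos (median -0.25), and 14 fell and 5 rose in mutants (median -0.39). The called genes with the smallest p in wild-type embryos were ets1 (-1.35), pax3a (-2.02), zic2a (-0.88) and tfap2c (-0.82). Other genes of the list fell further than some of these, among them ednrba (-2.06) and erbb3b (-1.52). The label gene crestin fell from 5.99 to 3.09 CPM in wild-type embryos (-0.95, edgeR adjusted p = 0.000568). In mutants crestin was at -0.44 and was called only in the fit without mutant CPT library 3. Of the genes that rose, foxd3 was at 0.71 in wild-type embryos and 0.38 in mutants. The gene snai2 rose in mutants (0.46) and was at -0.11, not called, in wild-type embryos. In the retinal pigment epithelium list 5 of 19 genes rose and 5 fell in wild-type embryos (median -0.073), and 2 rose and 9 fell in mutants (median -0.55). With library totals 3 rose and 8 fell in wild-type embryos (median -0.32), and 3 rose without wild-type DMSO library 3. The visual cycle isomerase rpe65a fell from 3.51 to 1.36 CPM in wild-type embryos (-1.37) and by 0.98 in mutants, and rdh5 (-1.41) and the eye field gene rx2 (-2.19) fell too. The opsin gene rgrb rose from 31.8 to 51.5 CPM in wild-type embryos (0.70, adjusted p = 1.10e-05) and was at 33.4 and 35.0 CPM in mutants (0.067, adjusted p = 0.61). The marker rlbp1b, with 9 to 111 reads per library, rose in both genotypes, by 1.29 in wild-type embryos and by 1.75 in mutants. Both of its calls held under all alternatives tried. The mitfa paralogue mitfb, a gene of the eye, was near the lower limit, at 0.758 CPM in wild-type DMSO (-0.88, adjusted p = 0.0958).

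Of the 115 list genes, 0 differed between genotypes in DMSO by edgeR, with 10 at an unadjusted p under 0.05, which 11.8% of all genes passed, and 1 called by DESeq2. Under CPT 7 differed, where 3.29% of all genes did. Beside tyrp1b, those lower in mutants were tspan36 (-0.95), mycbp2 (-2.50), the growth hormone receptor ghrb (-0.51), rgrb (-0.56) and the transcription factor otx2a (-0.50). The gene snai2 (0.42) was higher. For tspan36 the levels were 28.1 ± 3.9 CPM in wild-type CPT and 14.6 ± 4.4 CPM in mutant CPT (adjusted p = 0.0106), a call lost without mutant CPT library 1 or 3 (highest adjusted p = 0.056). With a library left out, the ghrb call was lost in 8 of 12 fits (all but those without wild-type CPT 3 or a mutant DMSO library) and that of snai2 in 7 (wild-type DMSO 3, wild-type CPT 1 or 2, mutant DMSO 2 and any mutant CPT library). That of mycbp2 was lost in 5 (wild-type CPT 1 or 2 and any mutant CPT library), that of otx2a in 4 (wild-type CPT 2 and any mutant CPT library) and that of rgrb without wild-type CPT library 2. Among the other alternatives, the ghrb call was lost with library totals, limma-voom and only the groups compared (highest adjusted p = 0.158), that of otx2a with library totals and only the groups compared (highest adjusted p = 0.124), that of snai2 with only the groups compared (adjusted p = 0.0585) and that of mycbp2 with limma-voom (adjusted p = 0.0619). Averaged over treatments, 2 list genes were called, both lower in mutants, where 2.14% of all genes were called. These were tspan36 (-0.71) and ghrb (-0.45, a call lost with library totals). Both already had fewer reads in mutant DMSO libraries, though not called there. For tspan36 these were 155, 168 and 207 against 245, 263 and 339 in wild-type DMSO, and for ghrb 208, 265 and 280 against 348, 388 and 400.

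The nearest profiles in the transcriptome were sought by the root mean square difference in log2 CPM over the 12 libraries after centring each gene on its mean, among genes with a mean of at least 1 CPM. For dct the closest were mybphb (0.066), aldh7a1 (0.10) and nup160 (0.10), and for tyrp1b they were eml2 (0.084), mybphb (0.092) and aldh7a1 (0.096). The pair dct and tyrp1b lay 0.12 apart, the smallest distance between any 2 members, and pmela and pnp4a lay 1.11 apart, the largest. For pmela the closest were thbs3a (0.048), the chaperonin subunit gene cct8 (0.066) and the elongation factor gene eef1db (0.068). For gch2 they were fbxo3 (0.083), akr1b1 (0.090) and d2hgdh (0.091). The aldo-keto reductase gene akr1b1 stood in the iridophore, xanthophore and pteridine lists. The profiles nearest to mitfa were those of mavs (0.15), her12 (0.17) and eve1 (0.19), and those nearest to pnp4a were cbsb (0.15), ttyh2l (0.15) and olig3 (0.15).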

How the data were processed

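RNA of pooled whole embryos was sequenced after poly-A selection on an Ion Proton instrument, per the labels' protocols. The authors deposited raw read counts, as whole numbers, for each gene symbol in 12 libraries. The submitters' processing notes name HTSeq 0.9.1 and STAR 2.7, beside Bowtie2, Picard 2.5.0 and Trim Galore 0.4.4, and the build danRer11. Which annotation and strand setting were used, and how multimapping reads were treated, is not given in the sources used here, so counts of close paralogues and overlapping genes are uncertain. No coordinates or sequences are given.

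Genes were kept with filterByExpr (11866 of 15265), scaled with TMM and fitted with the robust quasi-likelihood model of edgeR 4.0.16 (R 4.3.3) with 1 mean per group (residual degrees of freedom, 8). Adjusted p-values are Benjamini-Hochberg values over all genes tested. Each standard error is the absolute log2 change divided by the root of its F statistic, and intervals are 95%. CPM values are means ± SD over 3 libraries. Ratios used counts plus 0.5, and profiles a prior count of 2. Data were simulated with the real depths for the wild-type treatment comparison. Of 11760 genes, 67, 67 and 66 were changed by 0.5, 1 and 2 log2 units. In that setting 91.0% of genes changed by 1 log2 unit were called and 43.3% of those changed by 0.5, with 8 false calls. In the data 60.8% of genes were called, so these shares do not give the power of the tests here. No pair of replicates was a duplicate within sampling noise: their chi-square was 7.64 to 65.6 times its degrees of freedom.

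The members, lists and tests were chosen with earlier results of these data known. Of 173 list genes, 150 had a row. Named are the members, up to 4 called genes per list with the smallest p, list genes called between genotypes, paralogues and markers, and further list genes chosen after their values were seen. The lists cover melanin synthesis and the melanosome, melanophore specification, iridophores, purine synthesis, xanthophores, pteridines, neural crest, retinal pigment epithelium and other embryo tissues. Alternatives were DESeq2 1.42.0, limma-voom 3.58.1, DESeq2-type size factors, library totals, no filter, a replicate block, fits of only the groups compared and fits without each library. The same alternatives were applied to other named genes and to lists after the data were seen.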

Additional observations from a re-analysis of the deposited data

Results flagged for a closer look

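Of the 115 list genes, only otx2a had a CPT change that differed between genotypes in the edgeR interaction test. The tissue its reads came from was not tested. This transcription factor gene of the retinal pigment epithelium list differed by -0.93 ± 0.16 (mutant minus wild-type, edgeR adjusted p = 0.0195). It went from 21.4 ± 0.96 to 26.8 ± 2.2 CPM in wild-type embryos (0.33, adjusted p = 0.0165) and from 29.0 ± 2.2 to 19.1 ± 1.1 CPM in mutants (-0.61, adjusted p = 0.000131). The wild-type rise was not called with library totals (0.10, adjusted p = 0.527) or without wild-type DMSO library 3 (adjusted p = 0.0655). The interaction was not called with library totals (-0.76, adjusted p = 0.0832) or in 7 of the 12 fits that left out a library (wild-type DMSO 2 or 3, wild-type CPT 2, mutant DMSO 2 and any mutant CPT library). Over the 12 fits it ran from -0.999 to -0.894 with a highest adjusted p of 0.108. At an unadjusted p under 0.05 there were 22 such list genes, against 15.1% of all genes, and DESeq2 called 6, of 343 over all genes.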

How the results depend on the processing

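The falls of mitfa, pnp4a and gch2 with CPT kept their direction and call in both genotypes under all alternatives, and the rise of pmela kept its direction. Of 12 correlations between libraries of the same replicate number, 2 were over 0.1 (range -0.16 to 0.15). Libraries of different number were not compared, so this check cannot decide whether the numbers mark pairs. A replicate block left the members' calls at 4, 6, 0, 1, 0 and 0 over the 6 comparisons, with 7256, 7187, 84, 475, 281 and 25 genes called. With library totals the wild-type CPT changes of dct (-0.17), tyrp1b (-0.028) and pmelb (-0.042) turned, as did adssl in mutants (-0.041), pmela between genotypes in DMSO (0.0048), pnp4a (0.0057) and gch2 (0.18) between genotypes under CPT, and dct (0.011), pmela (0.00084), pnp4a (0.056) and gch2 (0.075) averaged over treatments, all not called. The gch2 genotype value under CPT also turned with limma-voom (0.0024) and the block (0.0015). In mutants pmelb turned with DESeq2-type size factors (0.015), no filter (0.022), DESeq2 (0.013), limma-voom (0.020) and only the groups compared (0.013).

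DESeq2 called 186 genes between genotypes in DMSO, 691 under CPT, 473 averaged and 343 for the interaction. Library totals gave 1195 under CPT, 480 averaged and 7 for the interaction, no filter gave 35 for the interaction, and only the groups compared gave 193 under CPT. Under CPT 0 members differed between genotypes with library totals or only the groups compared. With library totals 29.7% of wild-type CPT calls were higher, against 47.8% with TMM.

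With a library left out, called genes ran from 24 to 196 between genotypes in DMSO, 65 to 1045 under CPT, 126 to 632 averaged and 0 to 505 for the interaction. Called members ran from 3 to 6 for CPT in mutants and 0 to 1 between genotypes under CPT. The following ranges crossed 0: dct with CPT in wild-type embryos (-0.024 to 0.20); mitfa (-0.036 to 0.13), tyrp1b (-0.042 to 0.12), pmela (-0.044 to 0.037) and gch2 (-0.13 to 0.043) between genotypes in DMSO; gch2 under CPT (-0.090 to 0.084), averaged (-0.072 to 0.021) and for the interaction (-0.045 to 0.14); and pnp4a averaged (-0.11 to 0.0012). So did the CPT changes of tyr (-0.24 to 0.21) and gch1 (-0.34 to 0.14) in wild-type embryos and of tyr (-0.055 to 0.36), gch1 (-0.30 to 0.14), pmelb (-0.14 to 0.15) and adssl (-0.042 to 0.054) in mutants. The causes were not tested. Low counts limit the precision for mitfb, ltk, pax7a and mycbp2.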

Other observations

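Markers of other tissues were read beside the pigment cell genes. Of 18 tested genes of neurons, muscle, epidermis, blood and vessels, 5 rose and 8 fell with CPT in wild-type embryos (median log2 fold change -0.45), and 2 rose and 11 fell in mutants (median -0.68). In wild-type embryos 3 rose and 10 fell with library totals (median -0.68), 3 rose without wild-type DMSO library 2 and 2 without wild-type CPT library 1. In mutants 1 rose without mutant DMSO library 1 or mutant CPT library 2 or 3. Called in either direction were 72.2% of this list in each genotype, against 60.8% of all genes in wild-type embryos and 60.2% in mutants. The neuronal RNA-binding protein gene elavl4 (-2.50), the endothelial genes kdrl (-2.66) and cdh5 (-1.55) and the myeloid regulator spi1b (-1.89) fell in wild-type embryos by amounts on the scale of pnp4a. The epidermal keratin gene krt4 rose from 2725 to 4829 CPM in wild-type embryos (0.83, edgeR adjusted p = 0.00043) and was at 2968 and 2464 CPM in mutants (-0.27, adjusted p = 0.187). Under CPT krt4 (-0.97), the muscle actin gene actc1b (-0.74) and the troponin gene tnnt3b (-0.49) were lower in mutants than in wild-type embryos. The tnnt3b call was lost with library totals, with only the groups compared (highest adjusted p = 0.109) and in 8 of 12 fits that left out a library (any wild-type DMSO or mutant CPT library and wild-type CPT 1 or 2, highest adjusted p = 0.244). The actc1b call was lost without wild-type CPT library 2 or mutant CPT library 2 (highest adjusted p = 0.0699).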
